A study of Mus musculus with 6 samples.

Results

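The genes described here are 42 members of the glutathione, thioredoxin and carbonyl detoxification systems, all found by symbol among the 24043 gene rows of an RNA-seq table of mouse embryonic stem (ES) cells. ES cells are pluripotent cultured cells derived from the early embryo. Of the 6 libraries, 3 were wild-type and 3 came from cells labelled Q-KO, which by their genotype label lack all G1 cyclins. The culture medium of both groups held leukaemia inhibitory factor, CHIR99021, which blocks GSK3, and PD184352, which blocks MEK. The sources used here give neither strain, sex, alleles nor the number of clones. Nothing says that replicates were separate cultures, so the p-values rest on a spread between libraries that may be technical. Gsto1, Akr1cl and Cbr3 were chosen by their change between these same libraries, so their values are a description with no test. The other 39 genes were listed by enzyme class to place those changes. Libraries are numbered by their replicate. A level is an FPKM value, which counts fragments relative to the length of the gene and the depth of the library.

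Glutathione is a small peptide whose thiol group neutralises reactive compounds. It is made by glutamate-cysteine ligase (Gclc, Gclm) and glutathione synthetase (Gss), oxidised by glutathione peroxidases as they reduce peroxides, and returned to its reduced form by glutathione reductase (Gsr). Glutathione transferases couple it to electrophiles. The thioredoxin system reduces peroxiredoxins in a parallel chain, while aldo-keto and carbonyl reductases turn reactive carbonyls into alcohols. Many of these genes can be activated by the transcription factor NRF2 (Nfe2l2) through antioxidant response elements.

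Depth was similar across the libraries, whereas Y-linked transcripts were not. The summed FPKM was 525134 to 641715 per library, and depth relative to wild-type replicate 1, read from the lowest values, was 1.1 to 1.22 in the other 5. Summed Y-linked transcripts were listed at 0 in wild-type replicates 1 and 2, at 98.6 FPKM in wild-type replicate 3 and at 43.2 to 70.5 FPKM in the libraries labelled Q-KO. The labels do not say whether the wild-type libraries come from 1 line, so each wild-type mean and SD is over 3 libraries that differ in this. Values without wild-type replicate 3 are given below for several genes. Of the 5 G1 cyclin genes, Ccnd3 was at 53.4 to 141 FPKM in wild-type and 8.29 to 13.2 FPKM in Q-KO libraries. Ccnd1 was at 21.1 to 40.6 and 7.73 to 9.74 FPKM, Ccne2 at 6.19 to 7.94 and 2.82 to 3.12 FPKM, and Ccnd2 under 1 FPKM throughout, but Ccne1 was higher in all 3 Q-KO libraries (65.3 to 87.3 FPKM) than in wild-type ones (37.5 to 55.9 FPKM). The FPKM of a whole gene cannot tell whether its transcripts are intact, so these values do not test the genotype label. Q-KO is used below only as the name of the libraries so labelled. The 6 ES cell markers examined (Pou5f1, Sox2, Nanog, Klf4, Esrrb and Zfp42) summed to 1561 to 1712 FPKM in wild-type and 1631 to 1860 FPKM in Q-KO libraries. Within this sum Zfp42 was uneven, at 76.6, 78.9 and 363 FPKM in wild-type libraries 1, 2 and 3 and at 177, 75.4 and 74.7 FPKM in Q-KO libraries 1, 2 and 3. The 8 feeder fibroblast markers summed to 1.61 to 3.00 FPKM in wild-type and to 6.62, 0.960 and 0.990 FPKM in Q-KO libraries 1, 2 and 3, with Dcn at 0 in all wild-type libraries and Q-KO replicate 2. Lum and Postn were at 0 in wild-type replicates 1 and 2, respectively. Thy1 made up most of the wild-type sums, at 1.42 to 2.75 FPKM, and was lower in Q-KO libraries (0.819 to 1.36 FPKM). The other feeder markers were each highest in Q-KO replicate 1, where Col1a1, Col1a2 and Col3a1 were at 1.86, 1.16 and 1.35 FPKM. In wild-type libraries these 3 were at most at 0.168, 0.0442 and 0.0322 FPKM. The 6 trophectoderm markers summed to 2.64 to 5.41 FPKM in wild-type and 8.17 to 14.1 FPKM in Q-KO libraries. Of these 6, Eomes rose, from 1.06 to 1.23 FPKM in wild-type to 5.25 to 5.85 FPKM in Q-KO libraries (limma adjusted p = 0.00398), and none was at 0 in any library. Cdx2 and Gata3 had separate, higher Q-KO ranges but were under 1 FPKM throughout. Elf5, Hand1 and Krt7 overlapped between groups, with Hand1 lower on average in Q-KO libraries (0.122 and 0.0783 FPKM). Krt7 was at 7.90 FPKM in Q-KO replicate 3, against 1.28 and 1.53 FPKM in Q-KO replicates 1 and 2. The 7 primitive endoderm markers summed to 1.13 to 2.13 FPKM in wild-type and 1.59 to 1.73 FPKM in Q-KO libraries, with Afp at 0 in all wild-type libraries. The part of these other cell types in the results was not tested. In bulk RNA, a change in the number of cells of one type and a change in RNA per cell cannot be told apart.

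Among the genes chosen for their change, the aldo-keto reductase gene Akr1cl was low in wild-type libraries and readily measured in Q-KO libraries. Akr1cl was at 0.290, 0.469 and 1.34 FPKM in wild-type libraries 1, 2 and 3, and at 23.3, 18.1 and 20.2 FPKM in Q-KO libraries 1, 2 and 3. The group means, 0.701 ± 0.564 and 20.6 ± 2.62 FPKM (SD, n = 3 each), differ 29.3-fold, and the log2 change of FPKM + 1 was 3.71 (SE 0.24). Wild-type replicate 3 was the highest of its group, and no wild-type value came near the Q-KO range. How much of its sequence Akr1cl shares with other aldo-keto reductases was not computed, so its value may be uncertain.

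Gsto1, an omega-class glutathione transferase with thiol transferase and dehydroascorbate reductase activity, was expressed in wild-type libraries and much higher in Q-KO libraries. Its level was 43.1, 50.9 and 15.4 FPKM in wild-type libraries 1, 2 and 3, and 308, 315 and 344 FPKM in Q-KO libraries 1, 2 and 3. The Q-KO libraries lay close together, whereas wild-type replicate 3 was well below the other 2 wild-type libraries. The means were 36.4 ± 18.6 and 323 ± 19.1 FPKM (SD, n = 3 each), 8.86-fold apart, with a log2 change of 3.27 (SE 0.38). Without wild-type replicate 3 the log2 change was 2.76.

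Cbr3, a carbonyl reductase of the short-chain dehydrogenase family, moved the other way. It was at 17.6, 26.4 and 30.9 FPKM in wild-type libraries 1, 2 and 3, and at 7.66, 5.85 and 7.88 FPKM in Q-KO libraries 1, 2 and 3. The ranges did not overlap, and the wild-type mean (24.97 ± 6.75 FPKM) was 3.50-fold the Q-KO mean (7.13 ± 1.11 FPKM, SD, n = 3 each). The log2 change was -1.65 (SE 0.22).

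**Figure D1:**
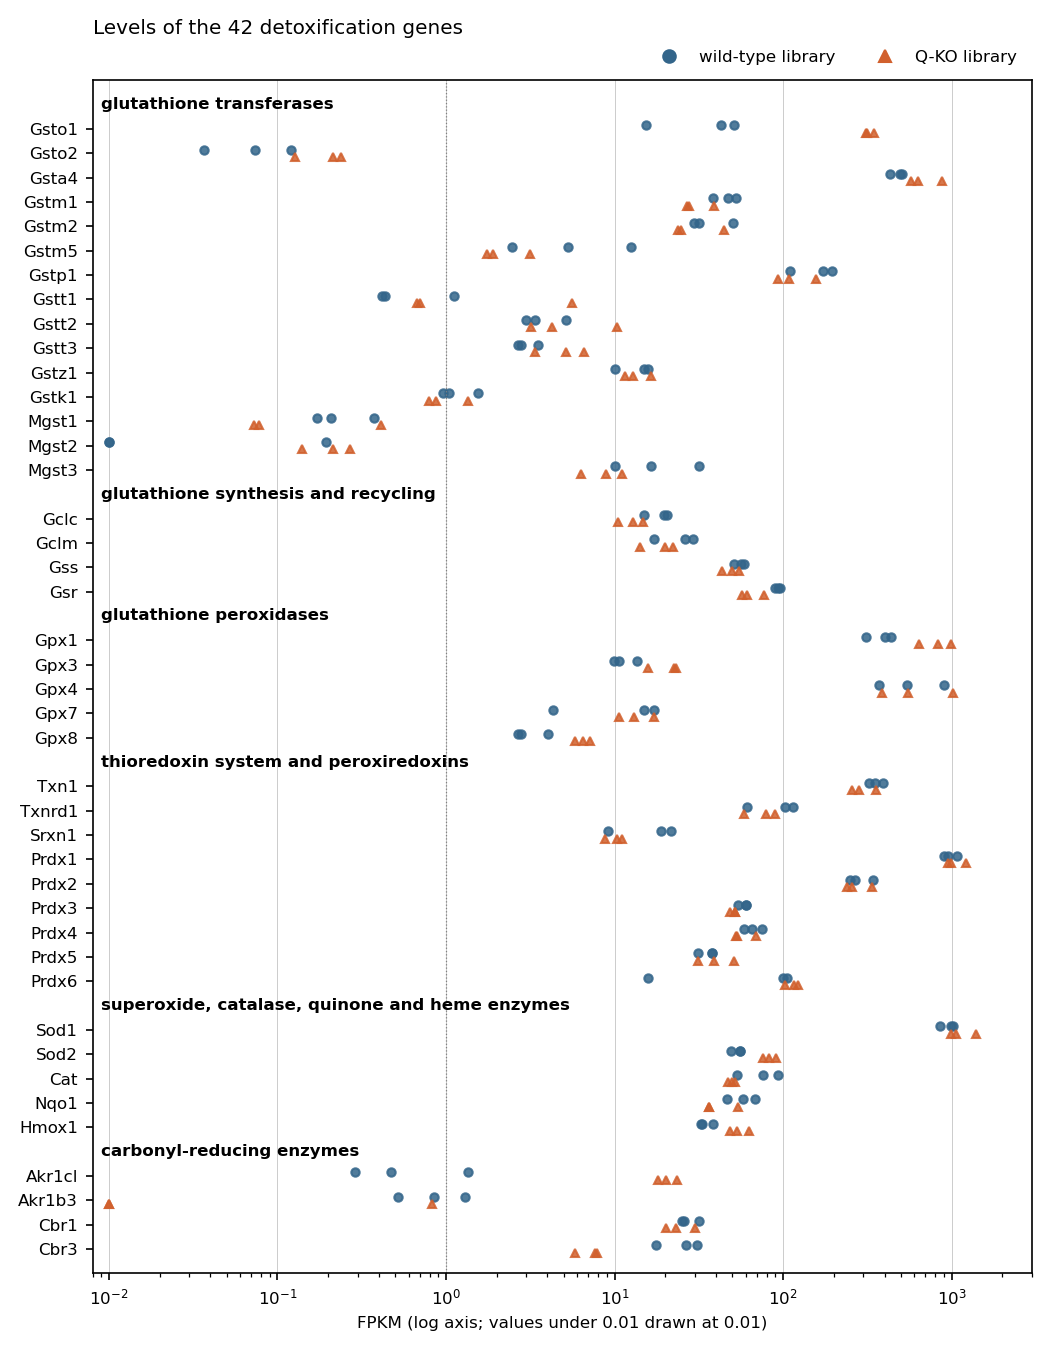
FPKM (log axis) of the 42 detoxification genes in each of the 3 wild-type (circles) and 3 Q-KO (triangles) libraries, by enzyme class, with values under 0.01 drawn at 0.01 and a dotted line at 1 FPKM. Gsto1 and Akr1cl lie far to the right in the Q-KO libraries and Cbr3 to the left, while most other members overlap or lie close together.

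The 250 bases before the annotated start of these 3 genes are shown because they differ in whether they hold the core of the antioxidant response element, TGACNNNGC. The sequences are RefSeq promoter windows of build GRCm38.p6, not of the mm9 build named for the expression files. They run 5′ to 3′ on the strand of the gene, and capitals mark the core, which is on the reverse strand in Akr1cl.
Gsto1, GRCm38.p6 chr19:47854723-47854972, plus strand: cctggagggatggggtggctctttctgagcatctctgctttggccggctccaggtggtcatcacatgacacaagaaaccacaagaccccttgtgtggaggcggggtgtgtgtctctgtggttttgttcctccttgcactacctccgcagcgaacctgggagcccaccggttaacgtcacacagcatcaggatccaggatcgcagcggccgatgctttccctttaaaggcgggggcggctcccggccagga
Akr1cl, GRCm38.p6 chr1:65032760-65033009, minus strand: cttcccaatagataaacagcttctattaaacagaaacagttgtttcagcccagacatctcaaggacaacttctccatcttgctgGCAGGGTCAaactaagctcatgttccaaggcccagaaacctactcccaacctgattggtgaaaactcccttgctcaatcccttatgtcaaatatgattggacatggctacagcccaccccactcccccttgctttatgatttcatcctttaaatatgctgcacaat
Cbr3, GRCm38.p6 chr16:93682969-93683218, plus strand: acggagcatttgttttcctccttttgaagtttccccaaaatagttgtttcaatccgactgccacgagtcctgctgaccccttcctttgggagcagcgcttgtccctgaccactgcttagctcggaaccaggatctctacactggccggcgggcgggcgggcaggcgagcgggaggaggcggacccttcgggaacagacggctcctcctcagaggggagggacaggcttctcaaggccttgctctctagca

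The core was found 166 bases before the start of Akr1cl, read as TGACCCTGC on the strand opposite to the gene. No match to these letters was in the windows of Gsto1 and Cbr3. Searching both strands, and any of the windows where a gene had several, 7 of the 35 members with a RefSeq promoter held the core (20.0%): Gstm5, Mgst1, Gclm, Txnrd1, Prdx1, Sod1 and Akr1cl. Over all genes of the promoter table, 3112 of 27025 did (11.5%), and among tested genes with a promoter 14.2% did, against 6 of 32 tested members (18.8%). The core overlaps the AP-1 motif TGACTCA in Prdx1, where it reads TGACTCAGC. Among the 6 tested members with the core, only Akr1cl was 1 of the 3 genes chosen for their change, and the other 5 had log2 changes of -1.05 (Gstm5), -0.33 (Gclm), -0.26 (Txnrd1), 0.10 (Prdx1) and 0.26 (Sod1). A match is a description of the letters only.

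Of the 42 members, 38 had an average level of 1 FPKM or more across the 6 libraries and were tested, and Gsto2, Mgst1, Mgst2 and Akr1b3 were below this filter. A gene low in one group can pass the filter through the other group alone, as Akr1cl did. The test was limma across all 11573 genes that passed, its p-values adjusted by the Benjamini-Hochberg method, and an adjusted p under 0.05 counted as a call. Leaving out the 3 genes chosen for their change, 4 of 35 members rose in the Q-KO libraries (11.4%), against 3.04% of all genes tested. These were the glutathione peroxidases Gpx1 and Gpx8, the mitochondrial superoxide dismutase Sod2 and the heme oxygenase Hmox1. None of the 35 fell by limma, against 1.02% of all genes, although 6 had an unadjusted p under 0.05 with a lower value and 7 with a higher one. The same share over all genes tested was 21.5%, made up of 14.8% higher and 6.7% lower. Wild-type and Q-KO ranges were separate for 10 of the 35 (28.6%), close to the 27.7% of all genes tested. The median log2 change of the 35 was -0.12, and that of all genes was 0.07. Median-of-ratios scaling moved the median of all genes to -0.04, and the share of rises among all calls from 74.9% to 55.6% (56.7% with quantile normalization). With it, Gpx1, Gpx8, Sod2 and Hmox1 stayed above 0 but none passed (limma adjusted p = 0.0544, 0.069, 0.0828 and 0.105). With 1 library left out, between 0 and 4 of the 35 rose. None rose without wild-type library 1 or 2 or Q-KO library 2 or 3, 1 rose without Q-KO library 1, and 4 rose and 2 (Srxn1 and Cat) fell without wild-type library 3.

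**Figure D2:**
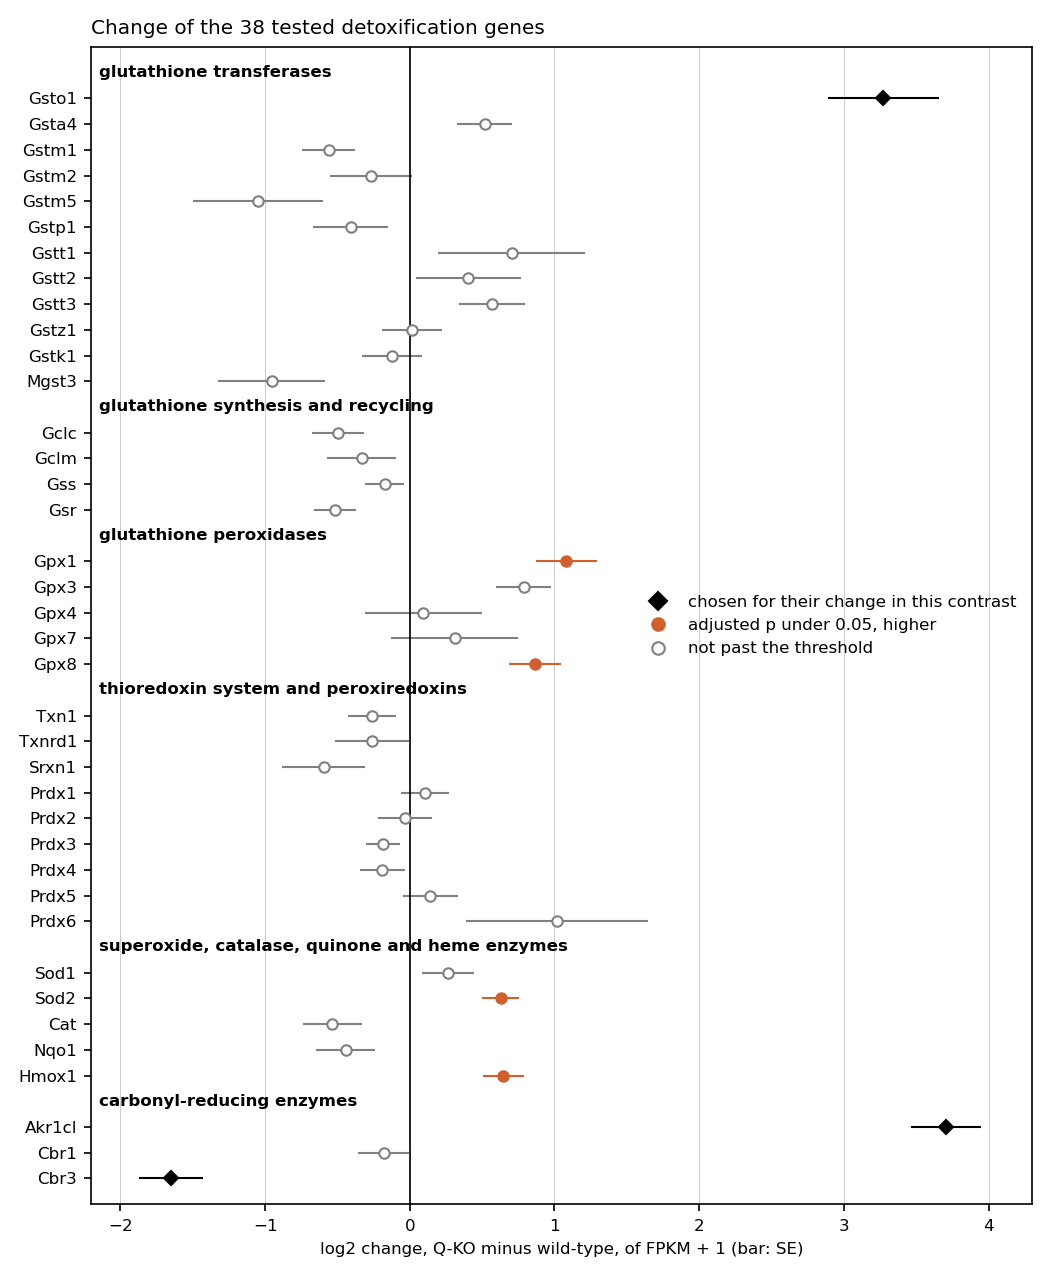
Log2 change of FPKM + 1, Q-KO minus wild-type, with its standard error, for the 38 tested members by class (3 libraries per group). Diamonds mark the 3 genes chosen for their change, filled circles the 4 others with an adjusted p under 0.05, and open circles the rest, most of which lie within 1 log2 unit of 0.

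Apart from Gsto1, none of the 11 tested glutathione transferases passed limma's test, with 5 at an unadjusted p under 0.05 (2 higher, 3 lower). The most abundant was Gsta4, an alpha-class enzyme known for conjugating the lipid peroxidation product 4-hydroxynonenal. Gsta4 was at 496, 510 and 428 FPKM in wild-type libraries 1, 2 and 3 and at 573, 633 and 880 FPKM in Q-KO libraries 1, 2 and 3. Each Q-KO library was thus above each wild-type library, with Q-KO replicate 3 the highest, but the log2 change of 0.52 (SE 0.19) did not pass (limma adjusted p = 0.168). The pi-class gene Gstp1 was at 159 ± 43.9 and 119 ± 32.7 FPKM (mean ± SD, n = 3 each, also below), with overlapping ranges, and shares reads with its near-identical copy Gstp2. Gstp2, which is not a member, was at 166 ± 42.8 and 98.6 ± 37.2 FPKM, also overlapping (log2 change -0.78, limma adjusted p = 0.169). The mu-class genes Gstm1, Gstm2 and Gstm5, also close copies of each other, had log2 changes of -0.56, -0.27 and -1.05, and the theta-class genes Gstt1, Gstt2 and Gstt3 of 0.71, 0.40 and 0.57. Q-KO replicate 3 was the highest library for both Gstt1 (5.58 FPKM, against 0.702 and 0.672 FPKM in Q-KO replicates 1 and 2) and Gstt2 (10.3 FPKM, against 3.19 and 4.27 FPKM). The zeta-class enzyme gene Gstz1, of tyrosine breakdown, was at 13.6 ± 3.12 and 13.6 ± 2.57 FPKM. Mitochondrial Gstk1 had a log2 change of -0.12, and the microsomal gene Mgst3 of -0.95 with overlapping ranges. Wild-type library 3 was the highest of the 6 for both Gstm5 and Mgst3, and without it their log2 changes were -0.53 and -0.55 (limma adjusted p = 0.358 and 0.302). Against that library alone, their log2 changes were -2.08 and -1.77. Gsto2, the neighbour and relative of Gsto1 on chromosome 19, was at 0.037, 0.120 and 0.073 FPKM in wild-type and 0.127, 0.214 and 0.239 FPKM in Q-KO libraries, which is under 1 FPKM throughout. Mgst1 (at most 0.411 FPKM) and Mgst2 (at most 0.268 FPKM) were likewise low in every library.

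Summed over the 15 transferases among the members, FPKM was 825, 863 and 728 in wild-type libraries 1, 2 and 3 and 1057, 1141 and 1519 in Q-KO libraries 1, 2 and 3. This sum and the shares below leave out Gstp2, Gstm3 and other transferases that are not members, and both of these were lower on average in Q-KO libraries. Gsto1 made up 5.22%, 5.89% and 2.11% of this sum in the wild-type libraries and 29.2%, 27.6% and 22.7% in the Q-KO libraries. Gsta4 remained the largest contributor, at 58.8% to 60.1% in wild-type and 54.2% to 57.9% in Q-KO libraries. Without Gsto1 the sum was 713 to 812 FPKM in wild-type and 748 to 1174 FPKM in Q-KO libraries, so that the groups overlapped and only Q-KO replicate 3 stood clearly above. This library also had the highest summed FPKM over all genes.

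**Figure D3:**
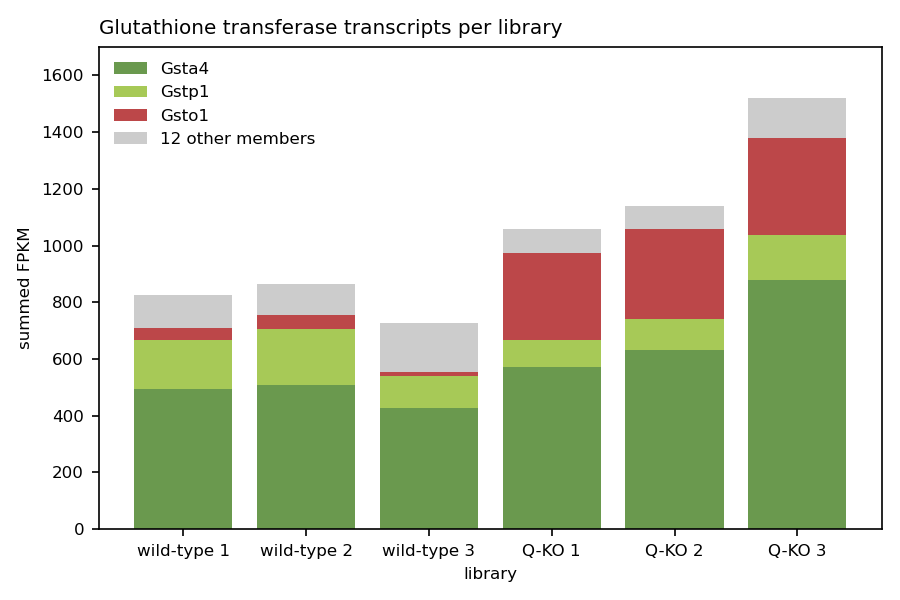
Summed FPKM of the 15 glutathione transferase genes among the members in each library, split into Gsta4, Gstp1, Gsto1 and the 12 other members. The Gsto1 part is 15.4 to 50.9 FPKM in the wild-type and 308 to 344 FPKM in the Q-KO libraries.

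The 4 genes of glutathione synthesis and recycling all had a log2 change below 0, with a median of -0.42, and none passed limma's test (2 had an unadjusted p under 0.05). Gsr, the NADPH-dependent reductase and the most abundant of the 4, was at 89.3, 93.2 and 96.1 FPKM in wild-type libraries 1, 2 and 3 and at 77.5, 60.9 and 57.1 FPKM in Q-KO libraries 1, 2 and 3. Its ranges did not overlap (log2 change -0.52, SE 0.15, limma adjusted p = 0.0946). Gclc, the catalytic subunit of the rate-limiting ligase, was at 18.4 ± 3.03 and 12.8 ± 2.18 FPKM, with the lowest wild-type value (14.99 FPKM) just above the highest Q-KO value (14.8 FPKM). For the modifier subunit Gclm (-0.33) and for Gss (-0.17) the groups overlapped. Without wild-type library 3 the log2 change of Gclm was -0.55, and against that library alone it was 0.11.

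The 5 glutathione peroxidases all had a log2 change above 0, with a median of 0.79, and 2 of them rose. Without wild-type replicate 3, Gpx4 (-0.21) and Gpx7 (-0.25) were below 0, and with median-of-ratios scaling Gpx4 was too (-0.04). Gpx1, the abundant cytosolic selenoprotein that reduces hydrogen peroxide, was at 404, 312 and 439 FPKM in wild-type libraries 1, 2 and 3 and at 639, 829 and 998 FPKM in Q-KO libraries 1, 2 and 3. Every Q-KO value was above every wild-type value, with means 2.13-fold apart (log2 change 1.08, SE 0.21, limma adjusted p = 0.0327). Gpx8, a membrane protein of the endoplasmic reticulum, was at 2.66, 2.77 and 4.05 FPKM in wild-type and 7.13, 5.84 and 6.54 FPKM in the Q-KO group (log2 change 0.86, SE 0.18, limma adjusted p = 0.0415). Its level was thus far below that of Gpx1 on the same per-length scale. The secreted peroxidase gene Gpx3 was at 13.6, 10.7 and 9.93 FPKM in wild-type and 15.9, 23.1 and 22.6 FPKM in Q-KO libraries, with separate ranges but no call (log2 change 0.79, SE 0.19, limma adjusted p = 0.0613). The call of Gpx1 was lost without wild-type replicate 1 or 2 or Q-KO replicate 2 or 3 (limma adjusted p = 0.102, 0.0769, 0.169 and 0.0869). The call of Gpx8 held in only 1 of the 6 fits that left out a library, that without wild-type replicate 3 (limma adjusted p = 0.0173, and 0.0852 to 0.164 in the others).

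Gpx4, the selenoprotein that reduces lipid hydroperoxides and restrains ferroptosis, was the most abundant peroxidase by its mean over all 6 libraries. It was at 542, 899 and 370 FPKM in wild-type libraries 1, 2 and 3 and at 389, 552 and 1021 FPKM in Q-KO libraries 1, 2 and 3. The spread within each group was larger than the difference of the means (604 ± 270 and 654 ± 328 FPKM, log2 change 0.09, limma adjusted p = 0.919). Gpx7, a peroxidase of the endoplasmic reticulum, was at 4.29 FPKM in wild-type replicate 3, against 10.6 to 17.2 FPKM in the other 5 libraries. Against that replicate alone, the log2 change of Gpx7 was 1.44.

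None of the 9 members of the thioredoxin system passed limma's test, and none had an unadjusted p under 0.05. Their median log2 change was -0.19. Prdx1, the most abundant peroxiredoxin, was at 949, 1075 and 899 FPKM in wild-type libraries 1, 2 and 3 and at 995, 946 and 1210 FPKM in Q-KO libraries 1, 2 and 3 (log2 change 0.10, SE 0.16, limma adjusted p = 0.757). The groups overlapped, and with median-of-ratios scaling the log2 change was -0.03. Thioredoxin itself, Txn1, was at 355 ± 35.6 and 298 ± 51.9 FPKM, and its selenoprotein reductase Txnrd1 at 92.8 ± 28.0 and 75.7 ± 15.5 FPKM. Prdx2 (-0.03), the endoplasmic reticulum form Prdx4 (-0.19) and Prdx5 (0.14) also overlapped between groups. The mitochondrial form Prdx3 had separate ranges at 53.9 to 60.5 FPKM in wild-type and 48.5 to 52.2 FPKM in Q-KO libraries (-0.19).

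In this class, Prdx6, Srxn1 and Txnrd1 were lower in wild-type library 3 than in either of the other wild-type libraries, and they are described here after their values were seen. Txnrd1 was at 102 and 115 FPKM in the wild-type libraries 1 and 2 and at 61.3 FPKM in library 3, and its log2 change was -0.26 with library 3 and -0.53 without it (limma adjusted p = 0.595 and 0.172). Prdx6, a peroxiredoxin that also acts on phospholipids, was at 100.3 and 106 FPKM in the wild-type libraries 1 and 2, at 15.8 FPKM in wild-type replicate 3 and at 103, 117 and 122 FPKM in Q-KO libraries 1, 2 and 3. Its log2 change of 1.02 (SE 0.63) was 0.14 without wild-type replicate 3 and 2.77 against that replicate alone. Srxn1, the sulfiredoxin that reactivates overoxidised peroxiredoxins, was at 18.9 and 21.6 FPKM in the wild-type libraries 1 and 2, at 9.17 FPKM in wild-type replicate 3 and at 8.73, 10.4 and 11.0 FPKM in Q-KO libraries 1, 2 and 3. Wild-type replicate 3 thus lay within the Q-KO range, and the log2 change was -0.59 (limma adjusted p = 0.277) with it and -0.95 (limma adjusted p = 0.0195) without it.

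Of the 5 genes of superoxide, peroxide, quinone and heme breakdown, Sod2 and Hmox1 rose. Sod2, the manganese superoxide dismutase of mitochondria, was at 55.6, 48.9 and 55.8 FPKM in wild-type libraries 1, 2 and 3 and at 75.9, 82.9 and 90.8 FPKM in Q-KO libraries 1, 2 and 3. The means were 1.56-fold apart with no overlap (log2 change 0.63, SE 0.13, limma adjusted p = 0.0385). Hmox1, the inducible enzyme that cleaves heme, was at 32.7, 33.0 and 38.3 FPKM in wild-type and 62.9, 48.6 and 53.4 FPKM in Q-KO libraries. Again the groups were separate (log2 change 0.65, SE 0.14, limma adjusted p = 0.049). The Hmox1 call held with the robust fit (limma adjusted p = 0.0423). It was lost with a pseudocount of 0.1, no filter, a minimum mean of 5 FPKM, quantile normalization, no intensity trend or the replicate block (0.0528 to 0.0869). The Sod2 call was lost with no intensity trend and with the replicate block (limma adjusted p = 0.0538 and 0.0759). Both calls held only without wild-type replicate 3 among the 6 fits that left out a library (limma adjusted p = 0.0472 and 0.0415), with adjusted p of 0.0759 to 0.189 for Sod2 and 0.0932 to 0.146 for Hmox1 in the other 5. Against wild-type library 3 alone, the only wild-type library with Y-linked transcripts, the log2 changes of Sod2 and Hmox1 were 0.56 and 0.50. Those of Gpx1 and Gpx8 were 0.88 and 0.57. A single library has no spread of its own, so these values are not calls.

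The other 3 genes of this class did not pass. Sod1, the copper-zinc dismutase of the cytosol and the most abundant member, was at 1016, 848 and 993 FPKM in wild-type and 996, 1066 and 1393 FPKM in the Q-KO group (log2 change 0.26, SE 0.18, limma adjusted p = 0.443). Catalase, Cat, which breaks down hydrogen peroxide in peroxisomes, was at 93.4, 76.0 and 53.0 FPKM in wild-type and 46.9, 52.2 and 49.7 FPKM in Q-KO libraries. The lowest wild-type value, that of replicate 3, was just above the highest Q-KO value (log2 change -0.53, SE 0.20, limma adjusted p = 0.176), and without that replicate the log2 change was -0.75 (limma adjusted p = 0.0302). Nqo1, the quinone reductase often used as a readout of NRF2 activity, was at 57.5 ± 10.9 and 42.2 ± 10.1 FPKM with overlapping ranges (log2 change -0.44, SE 0.20, limma adjusted p = 0.254).

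Among the carbonyl-reducing enzymes, Cbr1 stands beside Cbr3 in the order of protein-coding genes on chromosome 16 and acts on many of the same kinds of substrate. Cbr1, the most abundant member of the class, was at 25.8, 25.04 and 31.9 FPKM in wild-type libraries 1, 2 and 3 and at 20.1, 23.1 and 30.0 FPKM in Q-KO libraries 1, 2 and 3. The groups overlapped (log2 change -0.18, SE 0.18, limma adjusted p = 0.601). The ratio of Cbr1 to Cbr3 was 1.46, 0.949 and 1.03 in the wild-type libraries and 2.63, 3.95 and 3.81 in the Q-KO libraries. Akr1b3, the aldose reductase of the polyol pathway, was at 1.29, 0.522 and 0.847 FPKM in wild-type libraries, at 7.91e-05 and 7.03e-05 FPKM in Q-KO replicates 1 and 2 and at 0.829 FPKM in Q-KO replicate 3. Values this close to 0 can be failed estimates, and no comparison was made. Of the Akr1c genes listed beyond the members, all below the filter, Akr1c12, Akr1c13, Akr1c18 and Akr1c21 had separate, higher Q-KO ranges. Akr1c18 was at 0.0715 to 0.106 FPKM in wild-type and 0.966 to 1.32 FPKM in Q-KO libraries. Akr1c13 was at 0.216 to 0.400 and 0.566 to 0.816 FPKM, and Akr1c12 and Akr1c21 at most at 0.383 and 0.163 FPKM. Akr1c14 and Akr1c19 overlapped between groups, and Akr1c6 and Akr1c20 were at 0 throughout.

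The genes next to the 3 chosen ones were compared in RefSeq gene order (GRCm38.p6). Beside Akr1cl lie 2 lens crystallin genes that are close copies of each other. Of these, Cryge was at 1.23, 4.05 and 0.885 FPKM in wild-type and 10.3, 5.41 and 6.96 FPKM in the Q-KO group (log2 change 1.59, limma adjusted p = 0.0611). Crygd was at 2.67, 8.54 and 0.913 FPKM in wild-type and 18.2, 7.42 and 7.99 FPKM in Q-KO libraries, with overlap at wild-type replicate 2. On the other side of Akr1cl, Plekhm3 (-0.20) and Fzd5 (-0.14) overlapped between groups. Near Gsto1, Sfr1 had a log2 change of 0.22 with overlapping ranges, and Itprip and Wdr96 (Cfap43 in RefSeq) were below the filter. Itprip was at 0.503 to 0.636 FPKM in wild-type and 0.799 to 1.25 FPKM in Q-KO libraries. Wdr96 was at 0.227 to 0.270 and 0.346 to 0.418 FPKM, so the ranges of both were separate at these low levels. Near Cbr3, Setd4 was at 4.36 and 4.48 FPKM on average and Dopey2 (Dop1b in RefSeq) at 3.90 and 2.95 FPKM, in wild-type and Q-KO libraries, with separate ranges for Dopey2. Of the 8 tested neighbours, Cbr1 included, none passed limma's test, while 2 (Cryge and Crygd) had an unadjusted p under 0.05.

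Beyond the members, 103 other genes of the same pathways were listed, of which 78 were tested. Of these, 4 rose (5.13%) and 5 fell (6.41%), against 3.04% and 1.02% of all genes tested, and the median log2 change was 0.08, against 0.07. The largest rise was that of Ptges, a glutathione-dependent prostaglandin E synthase of the microsomal transferase family. Ptges was at 4.45, 7.64 and 2.39 FPKM in wild-type libraries 1, 2 and 3 and at 19.6, 24.0 and 32.3 FPKM in Q-KO libraries 1, 2 and 3 (log2 change 2.25, SE 0.33, limma adjusted p = 0.0141). No wild-type library came near the Q-KO range. Aldh1a3, which makes retinoic acid, went from 0.616 ± 0.0758 to 3.28 ± 1.71 FPKM (1.33) and Blvra, which reduces the biliverdin that heme oxygenase forms, from 7.44 ± 0.657 to 13.9 ± 2.93 FPKM (0.81). Aldh1a3 was under 1 FPKM in every wild-type library, so it passed the filter through the Q-KO libraries alone. The fourth and smallest rise was that of Ugdh (0.58), which supplies UDP-glucuronic acid and is named outside the rule for named genes.

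The 5 falls came from 5 of the 6 lists, 1 in each. Gstm3, a mu-class transferase with close copies, went from 12.5 ± 4.22 to 3.82 ± 1.72 FPKM (log2 change -1.49) and the epoxide hydrolase gene Ephx1 from 17.5 ± 3.45 to 7.47 ± 0.382 FPKM (-1.11). The mitochondrial aldehyde dehydrogenase gene Aldh1b1 changed by -1.05, the glutathione-conjugate exporter gene Abcc1 by -0.82 and the methionine sulfoxide reductase gene Msra by -0.76. Aldh1b1 went from 3.12 ± 1.01 to 0.964 ± 0.201 FPKM. Its Q-KO mean was thus under 1 FPKM, and it passed the filter through the wild-type libraries alone. Msra was at 7.95, 8.40 and 8.06 FPKM in wild-type and 4.23, 4.32 and 4.61 FPKM in Q-KO libraries, which is little spread within either group. Of these 9 calls, none held in all 6 fits that left out a library. Ptges held in 3 of them (highest limma adjusted p = 0.0978), Ephx1, Aldh1a3 and Aldh1b1 in 2, Gstm3 and Msra in 1, and Abcc1, Blvra and Ugdh in 0 (highest limma adjusted p = 0.188 for Gstm3, 0.194 for Aldh1a3 and 0.198 for Aldh1b1). Gsta3, an alpha-class transferase gene with close copies and outside the rule for named genes, passed only without wild-type library 3 among these 6 fits. It was at 3.92, 3.85 and 9.32 FPKM in wild-type and 18.2, 11.7 and 16.1 FPKM in Q-KO libraries, and its log2 change was 1.36 (limma adjusted p = 0.0537) with that library and 1.72 (0.00611) without it. Without wild-type replicate 1, Q-KO replicate 2 or Q-KO replicate 3, none of the 9 passed.

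The regulators of the NRF2 pathway did not pass limma's test in any of the 10 tested cases (1 had an unadjusted p under 0.05). Nfe2l2, which encodes NRF2, was at 53.6, 52.3 and 39.0 FPKM in wild-type libraries 1, 2 and 3 and at 63.7, 71.5 and 57.6 FPKM in Q-KO libraries 1, 2 and 3. Its ranges were separate (log2 change 0.41, SE 0.16, limma adjusted p = 0.192). Keap1, the adaptor through which NRF2 is degraded, was at 9.28 and 11.2 FPKM on average (limma adjusted p = 0.421), and Bach1, a repressor of the same elements, at 11.3 and 11.1 FPKM (limma adjusted p = 0.925), in wild-type and Q-KO libraries. Transcript levels do not report NRF2 protein, which is controlled mainly by degradation.

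**Figure D4:**
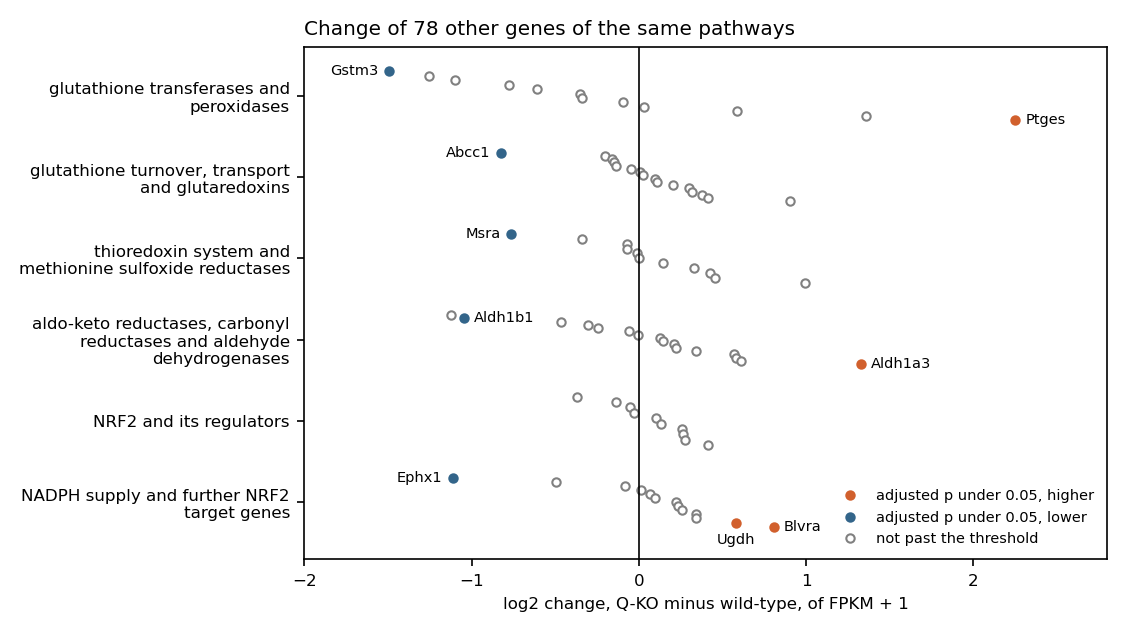
Log2 change of FPKM + 1, Q-KO minus wild-type, of the 78 tested other genes of the pathways, 1 point per gene in 6 lists (3 libraries per group), spread vertically within a list by rank. Filled points are the 4 rises and 5 falls with an adjusted p under 0.05, and the list of NRF2 and its regulators holds none.

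For the 3 chosen genes and the 4 other members that rose, the direction was the same in each alternative analysis run. Only the median-of-ratios and quantile scalings could have changed it. With separate ranges, leaving out a library, the Y-linked term or another pseudocount cannot reverse a direction, and the remaining settings leave the log2 change as it is. The log2 change ranged from 2.76 to 4.3 for Gsto1, from 3.19 to 4.91 for Akr1cl and from -1.98 to -1.48 for Cbr3. It ranged from 0.88 to 1.25 for Gpx1, from 0.57 to 1.04 for Gpx8, from 0.50 to 0.73 for Hmox1 and from 0.50 to 0.69 for Sod2.

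**Figure D5:**
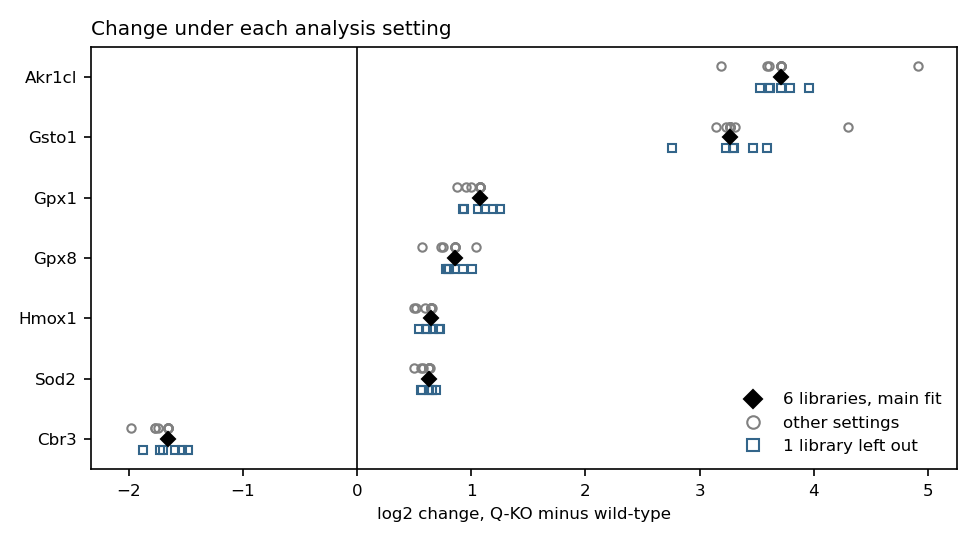
Log2 change, Q-KO minus wild-type, of 7 members with all 6 libraries (diamonds), with 1 library left out (squares) and under the other settings (circles), on the log2(FPKM + pseudocount) scale. All points of a gene lie on the same side of 0, which the separate ranges fix in advance for all settings but the scalings. Gsto1 is lowest, at 2.76, when wild-type replicate 3 is left out.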

How the data were processed

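The authors deposited 1 table with an FPKM value for each gene symbol in each library. CASAVA, bcl2fastq 2.16, STAR 2.5, Cufflinks and build mm9 are named, without role or order, in the submitters' processing notes. The sources used here give no annotation, strand setting or fragment counts, so the absolute depth is unknown and no counting interval was computed. A stray header row was dropped. FPKM moves with very abundant genes of a library and is uncertain for close copies and near 0.

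On log2(FPKM + 1), the 11573 genes averaging 1 FPKM or more were fitted with limma 3.58.1 in R 4.3.3 (lmFit, eBayes with an intensity trend), two-sided, Benjamini-Hochberg adjusted over all of them, threshold 0.05. This scale understates changes of low genes. The fit was tested on simulated data. Depth relative to wild-type replicate 1 is the commonest ratio of values under 0.2 FPKM. The Y-linked term marks libraries with a summed level of at least 1 FPKM. Members and lists were chosen with earlier results of these data known. The values of every library are given for Gsto1, Akr1cl, Cbr3, other members past the threshold, members with separate ranges and a log2 change of at least 0.5 in size, and the most abundant of each class. Of the other pathway genes, the 8 largest calls, Nfe2l2, Keap1 and Bach1 are named by rule. Others, such as Gpx2, Gpx6, Gstp2 and the Akr1c genes, are named outside it. Alternatives were other pseudocounts, filters, scalings and variance settings, a replicate block, the Y-linked term and leaving out each library.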

Additional observations from a re-analysis of the deposited data

How the results depend on the processing

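Of all genes tested, 470 passed limma's threshold, 266 with a minimum mean of 5 FPKM, 894 with the Y-linked term (a comparison with wild-type library 3 alone, whose spread is assumed from the other libraries), and 28 to 566 when 1 library was left out (28 and 85 on leaving out Q-KO library 2 or 3, 187 for Q-KO library 1 and 94 for wild-type library 1). Members higher in the Q-KO libraries numbered 6, of which 2 are Gsto1 and Akr1cl, chosen for their change, but 3 with no filter, 2 with median-of-ratios scaling, 3 with the replicate block and 1 to 6 with 1 library left out. Without the chosen genes these numbers were 4, 1, 0, 1 and 0 to 4. Members lower numbered 1, the chosen Cbr3, but 3 with the Y-linked term and 0 to 3 with 1 library left out. Other pathway genes higher numbered 4, but 1 with median-of-ratios scaling, 2 with quantile normalization, 2 with the replicate block and 0 to 3 with 1 library left out. Those lower numbered 5, but 2 with no filter, 2 with the replicate block and 0 to 4 with 1 library left out. Of the members and other pathway genes past the threshold in at least 1 analysis, those that changed sign were Srxn1 (log2 change 0.115 with the Y-linked term), Aldh1a2 (-0.00353 with quantile normalization) and, when wild-type replicate 3 was left out, Gpx7 (-0.254, and up to 0.638 without wild-type replicate 2), Gstm7 (0.0875, down to -0.642), Oplah (0.323, down to -0.454) and Aldh1a2 (-0.327, up to 0.401). None of these passed in the main analysis of all 6 libraries. With the Y-linked term, the log2 changes were 1.44 for Gpx7, -1.24 for Gstm7, -1.1 for Oplah and 1.09 for Aldh1a2. The cause of these shifts was not tested. The replicate block left 333 genes. Same-numbered libraries did not deviate together (r = -0.0282, 0.0121 and 0.0218), and no library correlated best with its own number. These correlations cannot show whether same-numbered libraries shared a culture or day. Precision is limited by 3 libraries per group and by FPKM values without counts.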
